A study of Solanum lycopersicum with 12 samples.

Results

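The genes described here are named for the enzymes of the last steps of ethylene biosynthesis in tomato (Solanum lycopersicum). These are 1-aminocyclopropane-1-carboxylate (ACC) synthases, or ACS, and ACC oxidases, or ACO. The genes were chosen by gene identifier as ACS2, ACS4, ACS6, ACO1, ACO3, ACO4, ACO5 and ACO6, a rule that uses no measured value. Of these 8 identifiers, 7 had a row among the 34075 gene models of the deposited count table, comprising 2 ACS and 5 ACO genes, and ACS6 was not analysed here. Counts were found for 5 of the 7 in at least 1 library. Of these, 4, all named ACO, passed the filter on low counts and were tested.

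Leaf RNA was sequenced from plants given 1 of 4 treatments, named in the labels as Control, Salinity, Heat and Salinity + heat. The last is called the combination here. Each treatment had 3 libraries, made from messenger RNA of frozen leaves and sequenced as read pairs. The labels used here do not state the cultivar, the plants' age, how much salt was given, how hot and for how long the plants were kept, or the number of plants behind a library. P-values therefore measure the spread between libraries, which may be technical in part.

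In plants, ethylene is made from methionine by way of S-adenosylmethionine (SAM). ACS converts SAM to ACC, and this step is widely regarded as the main control point of the pathway. ACO oxidises ACC to ethylene, which is bound by receptors of the ETR family that repress signalling in its absence. In leaves the hormone is known for its roles in senescence, abscission and responses to wounding, flooding, salt and heat. Both enzymes are encoded by small gene families whose members differ in tissue and inducer, with ACS2 and ACS4 best known from ripening fruit.

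Gene names follow the list by which the members were chosen. RefSeq, in its table for assembly SLM_r2.1, holds a symbol for each of the 8 names, and in 8 of 8 cases on the chromosome that the identifier carries. The name ACO3 is ambiguous. Here it belongs to Solyc09g089580.4.1, and the RefSeq gene ACO3 on chromosome 9 has the synonym E8/Sl27DOX, whereas ACO3 is also a synonym of another RefSeq gene, EFE, on chromosome 7. E8 is known as an ethylene-responsive dioxygenase gene of ripening fruit related to the ACO family, so values given for ACO3 below are those of this gene model, and may not describe an ACC oxidase.

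Libraries held between 56281339 and 78370751 counts, at which 3 counts correspond to 0.0326 to 0.0668 CPM (counts per 1000000, scaled to TMM library sizes). The 7 gene models listed as leaf markers, which encode small subunits of Rubisco, Rubisco activase and chlorophyll-binding proteins, were detected in every library. Their summed level was 94461.5 to 107328 CPM in control libraries and 82227.5 to 155611 CPM in salinity libraries. The range was 52340.8 to 57943.1 CPM for heat libraries and 45873.4 to 59857.8 CPM for combination libraries. These sums do not show a shift shared by all 7. The Rubisco activase gene, Solyc10g086580.2.1, averaged 12255.7 CPM in control, 4945.96 CPM in salinity, 15327.5 CPM in heat and 6205.57 CPM in the combination. The other leaf markers had higher means in salinity than in control and lower means in heat. The part of the leaf markers in the results below was not tested. Of 3 listed markers of ripe fruit, the polygalacturonase gene had no count in any library, and the summed level of the 3 ran from 11.4 to 17.5 CPM among control libraries, from 22.2 to 27.1 among salinity libraries, from 15.0 to 18.5 among heat libraries and from 32.0 to 34.1 among combination libraries. The salinity libraries were not alike. A gene model listed as a salt-responsive dehydrin, Solyc02g084850.3.1, stood at 722 CPM in salinity replicate 1 but at 1.02 and 0.641 CPM in replicates 2 and 3, compared with 0.563 to 4.84 CPM in control and 19.1 to 33.6 CPM in the combination. Of 2 gene models listed as heat-responsive, a chaperone and a heat stress transcription factor, the summed level was 1.73 to 2.25 CPM in control. It was 1.89 to 7.47 CPM in heat and 1.40 to 2.36 CPM in the combination, and both overlapped with control. The highest summed value came from heat replicate 3. There the chaperone gene, Solyc03g115230.3.1, stood at 6.74 CPM, compared with 1.54 and 2.40 CPM in heat replicates 1 and 2. The transcription factor gene, Solyc08g062960.4.1, did not rise, with a mean of 0.490 CPM in control and 0.450 CPM in heat.

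The ACS members were nearly silent in these leaves. ACS4 (Solyc05g050010.3.1) had no count in any of the 12 libraries, which allows up to 3 counts in each. ACS2 (Solyc01g095080.3.1) had 28 counts in all. In control its counts were 2, 0 and 2 in replicates 1 to 3, in salinity 2, 2 and 0, in heat 0, 0 and 0, and in the combination 6, 12 and 2. The combination thus held 20 of the 28 counts, and each of its 3 libraries lay above all 3 heat libraries, but the 9 libraries of the other groups held 2 counts or fewer, under the 3 that a count of 0 allows, and ACS2 did not pass the filter. When the filter on low counts was left out, edgeR gave ACS2 an adjusted p of 0.0268 for the combination against heat and between 0.135 and 1 in the other 5 contrasts.

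ACO6 and ACO4 together held most of the counts of the ACO genes described here, between 88.8% and 98.6% in each library. Counts are not scaled for transcript length, so levels of different genes are not compared. ACO5 (Solyc07g026650.3.1) had no count in any library, which allows up to 3 counts in each.

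The level of ACO4 (Solyc02g081190.4.1) was lowest in control and highest in the combination. It was 111, 113 and 118 CPM in control replicates 1 to 3, 142, 134 and 152 CPM in salinity, 144, 161 and 165 CPM in heat, and 215, 177 and 211.5 CPM in the combination. All 9 libraries of stressed plants lay above all control libraries, and all combination libraries lay above all others, whereas salinity and heat overlapped. The replicates lay close together, with a coefficient of variation of 2.96% in control and 10.3% in the combination. Against control the mean of the combination was 1.77-fold higher, that of heat 1.38-fold and that of salinity 1.25-fold.

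ACO6 (Solyc02g036350.3.1) showed its highest mean in salinity and its lowest in heat. Its level was 326, 265 and 459 CPM in control replicates 1 to 3, 350, 484 and 673 CPM in salinity, 237, 206 and 258 CPM in heat, and 223, 349 and 214 CPM in the combination. The 3 heat libraries lay below all control and salinity libraries. In the combination, replicate 2 lay within the control range and the other 2 below it. Neighbouring groups in the order salinity, control, combination and heat overlapped.

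ACO1 (Solyc07g049530.3.1), known in tomato from ripening fruit, wounded leaves and senescing leaves, varied most between replicates of the unheated plants. It stood at 16.6, 11.2 and 33.1 CPM in control replicates 1 to 3 and at 59.0, 13.1 and 28.8 CPM in salinity. In heat it was 8.22, 3.86 and 6.49 CPM, below every other library. In the combination it was 22.5, 15.5 and 9.91 CPM, which overlapped with control and lay above heat. The highest salinity value came from the library in which the listed dehydrin gene was high.

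ACO3 was low throughout, with a single exception. It was 1.27, 0.968 and 1.31 CPM in control replicates 1 to 3, 3.29, 1.07 and 1.31 CPM in salinity and 1.98, 3.05 and 2.35 CPM in the combination. In heat, replicate 1 reached 20.6 CPM, with 1774 counts, while replicates 2 and 3 stood at 1.48 and 1.70 CPM. The heat mean of 7.94 CPM (n = 3), smaller than its SD of 11.005 CPM, rested on that library. All libraries of heat and the combination lay above all control libraries, and neighbouring groups in the order heat, combination, salinity and control overlapped.

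**Figure D1:**
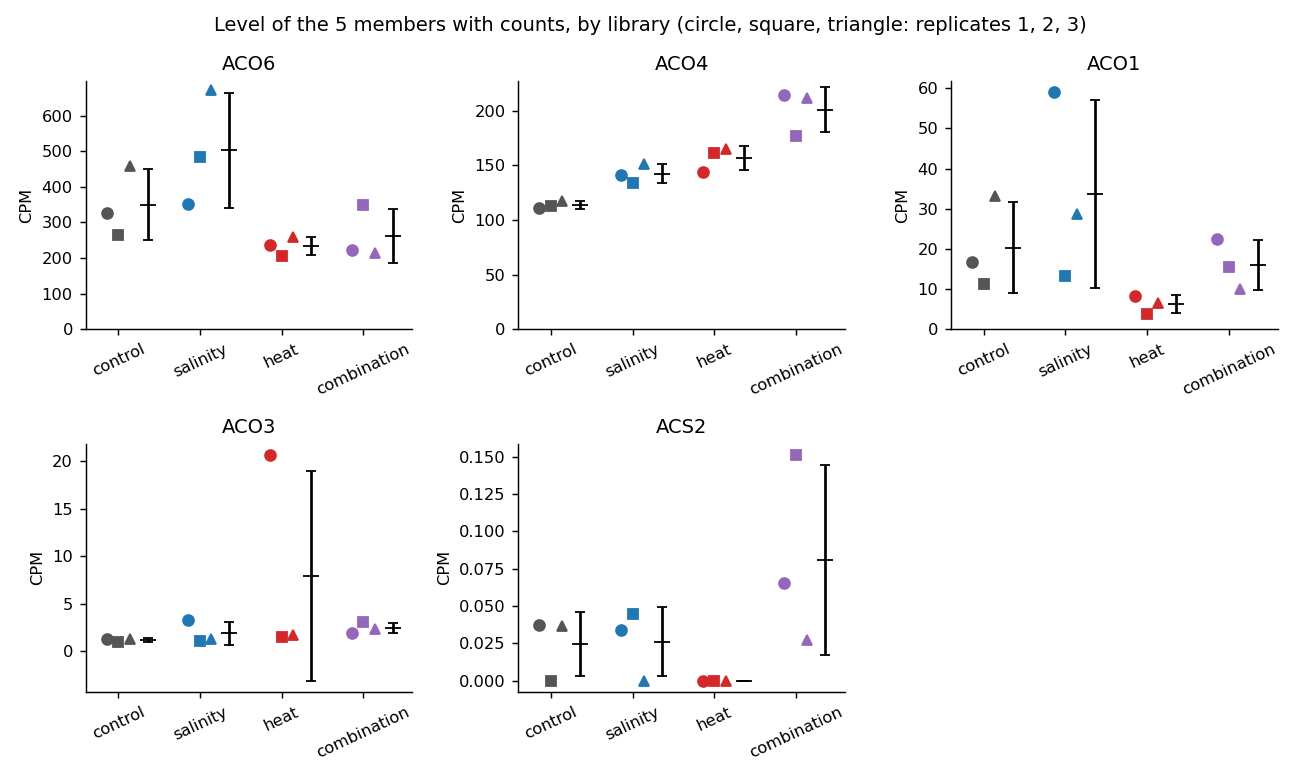
Level in CPM (y axis, linear, a separate scale for each gene) of the 5 members with counts, in the 4 treatment groups (x axis). Circles, squares and triangles are replicates 1, 2 and 3, and the bar beside them is the mean with its SD (n = 3). ACO4 lies at 111 to 118 CPM in control and at 177 to 215 CPM in the combination, and 1 heat library of ACO3 stands at 20.6 CPM.

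Salinity against control shows what salt did without heat. None of the 4 tested members was called at an adjusted p under 0.05 in edgeR's quasi-likelihood test, where the share over all tested gene models was 47.4%, with 23.6% higher and 23.8% lower. Of the members, 1 of the 4 had an unadjusted p under 0.05, as did 11373 of the 20717 tested gene models. That member was ACO4, at a log2 fold change of 0.32 (SE 0.13, adjusted p = 0.0517 by edgeR). With DESeq2 size factors in the same model its adjusted p was 0.0414, and by the DESeq2 Wald test it was 0.00933, so that the choice of scaling and tool decided the call. ACO6 had a log2 fold change of 0.52 (SE 0.27, adjusted p = 0.131 by edgeR). Without salinity replicate 1, the library high in the dehydrin gene, this became 0.72 with an adjusted p of 0.0429, and without control replicate 3 it became 0.77 with an adjusted p of 0.0471. For ACO1 the log2 fold change was 0.73 (SE 0.51, adjusted p = 0.26 by edgeR), and between 0.05 and 1.28 when a library was left out. Its lower end came from the refit without salinity replicate 1. ACO3 had a value of 0.68 (SE 0.83), which was 0.02 without salinity replicate 1. The median log2 fold change of the 4 was 0.60, that of all tested gene models 0.04.

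Heat alone, compared with control, gave calls for 3 of the 4 tested members, 2 higher and 1 lower. The share called over all tested gene models was 39.9%, with 24.6% higher and 15.2% lower. ACO4 rose by 0.46 on the log2 scale (SE 0.13, adjusted p = 0.0137 by edgeR). ACO1 fell by 1.71 on the log2 scale (SE 0.53, adjusted p = 0.0228 by edgeR). ACO3 was called higher, with a log2 fold change of 2.75 (SE 0.85, adjusted p = 0.0233 by edgeR). Without heat replicate 1 the log2 fold change of ACO3 was 0.43 with an adjusted p of 0.466. ACO6 had a log2 fold change of -0.58 (SE 0.27, adjusted p = 0.102 by edgeR), although its heat and control libraries did not overlap. It was called by the DESeq2 Wald test (adjusted p = 0.0374) and when only heat and control libraries were fitted (adjusted p = 0.0255).

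The heat calls were sensitive to single libraries. Without heat replicate 2, the adjusted p by edgeR was 0.089 for ACO1 and 0.0525 for ACO4. Leaving out control replicate 3 moved ACO1 to a log2 fold change of -1.17 with an adjusted p of 0.118, and with library totals in place of TMM factors ACO1 had an adjusted p of 0.0698. Without combination replicate 2, which changes the scaling and the shared spread, ACO4 had an adjusted p of 0.0622, and ACO6 was called with a log2 fold change of -0.72 and an adjusted p of 0.0367. ACO3 also lost its call without control replicate 1, 2 or 3, with adjusted p of 0.0571, 0.0761 and 0.0671. With the replicate number as a block it was lost at a log2 fold change of 2.01 and an adjusted p of 0.0617. The ACO3 call was kept in 14 of 20 alternatives, and not every loss is named here.

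The combination was set against control to ask what both stresses did together. ACO4 was higher by 0.82 on the log2 scale (SE 0.13, adjusted p = 0.000545 by edgeR). It was the 1 called of the 4 tested members. The share called over all tested gene models was 32.5%, with 17.5% higher and 15.1% lower. The ACO4 call was kept in all 20 alternatives, with an adjusted p of at most 0.00391. ACO1 and ACO6 had log2 fold changes of -0.35 (SE 0.51) and -0.42 (SE 0.27), and that of ACO1 was 0.20 without control replicate 3. ACO3 had 1.06 (SE 0.82, adjusted p = 0.35 by edgeR) with no overlap between the groups. When only control and combination libraries were fitted, which leaves out the spread of the heat group, its adjusted p was 0.019.

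What heat changed in salt-treated plants was taken from the combination against salinity. Here 2 of the 4 tested members were called, 1 higher and 1 lower. The share called over all tested gene models was 44.5%, with 24.4% higher and 20.1% lower. ACO6 fell by 0.94 on the log2 scale (SE 0.27, adjusted p = 0.0146 by edgeR), while ACO4 rose by 0.50 (SE 0.13, adjusted p = 0.00733 by edgeR). The ACO6 call was lost without salinity replicate 3, at an adjusted p of 0.0713, without combination replicate 1 or 3, at 0.0617 each, and with library totals in place of TMM factors, at 0.088. The ACO4 call was lost, at 0.0579, when only the 2 groups were fitted. ACO1 stood at -1.08 (SE 0.52, adjusted p = 0.108 by edgeR) and was called without salinity replicate 2, at -1.46 with an adjusted p of 0.0342, and by the DESeq2 Wald test, with an adjusted p of 0.0486.

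Salinity in heated plants, the combination against heat, gave a call for 1 of the 4 tested members, which was higher. The share called over all tested gene models was 40.3%, with 17.0% higher and 23.4% lower. ACO4 was higher by 0.36 on the log2 scale (SE 0.13, adjusted p = 0.0391 by edgeR's quasi-likelihood test). This call was kept in 10 of 20 alternatives, and it was lost when any of the 3 heat libraries was left out, at adjusted p of 0.139, 0.0893 and 0.0557 for replicates 1 to 3. It was lost as well without combination replicate 1 or 3, at 0.109 and 0.112, and without control replicate 1 or 2, at 0.0509 and 0.0534. ACO1 lay higher in every combination library than in every heat library, at a log2 fold change of 1.37 (SE 0.52, adjusted p = 0.0536 by edgeR). It was called in 9 of 20 alternatives, among them the replicate number as a block (adjusted p = 0.0227) and the refits without control replicate 3, salinity replicate 1, salinity replicate 2 or combination replicate 3 (adjusted p of 0.0414, 0.0294, 0.0295 and 0.0439). ACO3 stood at -1.69 (SE 0.81, adjusted p = 0.11 by edgeR), but at 0.63 without heat replicate 1. It was called lower without heat replicate 2 or 3, at adjusted p of 0.0464 and 0.0396.

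The interaction asks whether the combination departs from the sum of the changes under the single stresses in log2 terms. None of the 4 tested members was called in edgeR's quasi-likelihood test, where the share over all tested gene models was 8.94%, with 4.73% higher and 4.21% lower. None had an unadjusted p under 0.05, while 5438 of the 20717 tested gene models did. The DESeq2 Wald test called none of the 3 members for which it gave an adjusted p, and gave none for ACO3. For ACO4 the interaction was 0.04 (SE 0.18), so that the change in the combination, 0.82, lay close to the sum of 0.32 for salinity and 0.46 for heat. The values were 0.64 (SE 0.73) for ACO1, -2.37 (SE 1.16) for ACO3 and -0.35 (SE 0.38) for ACO6. The SE of these values is larger than in the comparisons of 2 groups, and a missing call does not show that the effects were additive.

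**Figure D2:**
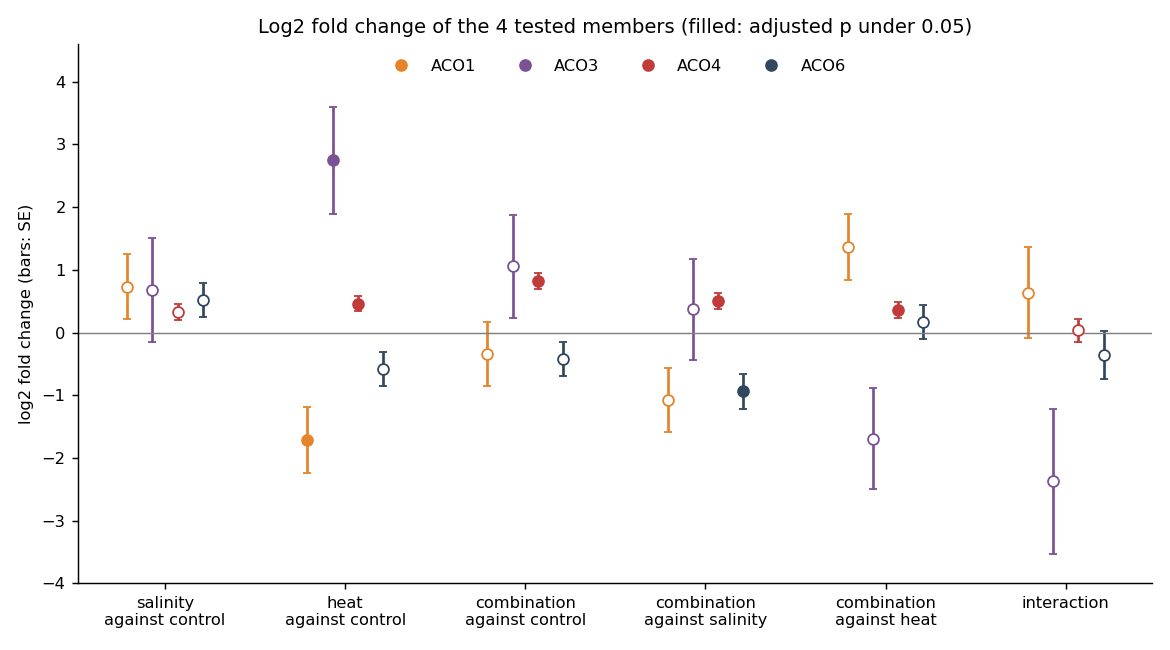
Log2 fold change (y axis) of the 4 tested members in the 5 comparisons of 2 groups and in the interaction (x axis), from edgeR's quasi-likelihood model. Bars are the approximate SE, and filled points have an adjusted p under 0.05. ACO4 lies above 0 in the 5 comparisons, with short bars, and near 0 in the interaction, and ACO3 has the longest bars.

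The balance between the 2 members with the most counts differed between heated and unheated plants. The ratio of ACO4 to ACO6 counts does not depend on library scaling. It was 0.340, 0.426 and 0.256 in control replicates 1 to 3, and 0.404, 0.277 and 0.225 in salinity. In heat it was 0.608, 0.782 and 0.641, and in the combination 0.961, 0.508 and 0.990. All 6 libraries of heated plants thus lay above all 6 of unheated plants. As a mean ± SD of 3 libraries, ACO4 made up 24.2% ± 4.87 of the ACO counts under control conditions and 21.5% ± 3.91 under salinity. Its share was 38.9% ± 4.09 after heat and 42.4% ± 8.63 after the combination. The ratio was chosen after the values had been seen and was not tested. The summed level of the ACO members averaged 485 CPM (SD 114, n = 3) for control, 680.3 CPM (SD 156, n = 3) for salinity, 404 CPM (SD 29.8, n = 3) for heat and 482 CPM (SD 56.4, n = 3) for the combination. The control libraries overlapped with those of each other group, while salinity lay above heat and above the combination without overlap.

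**Figure D3:**
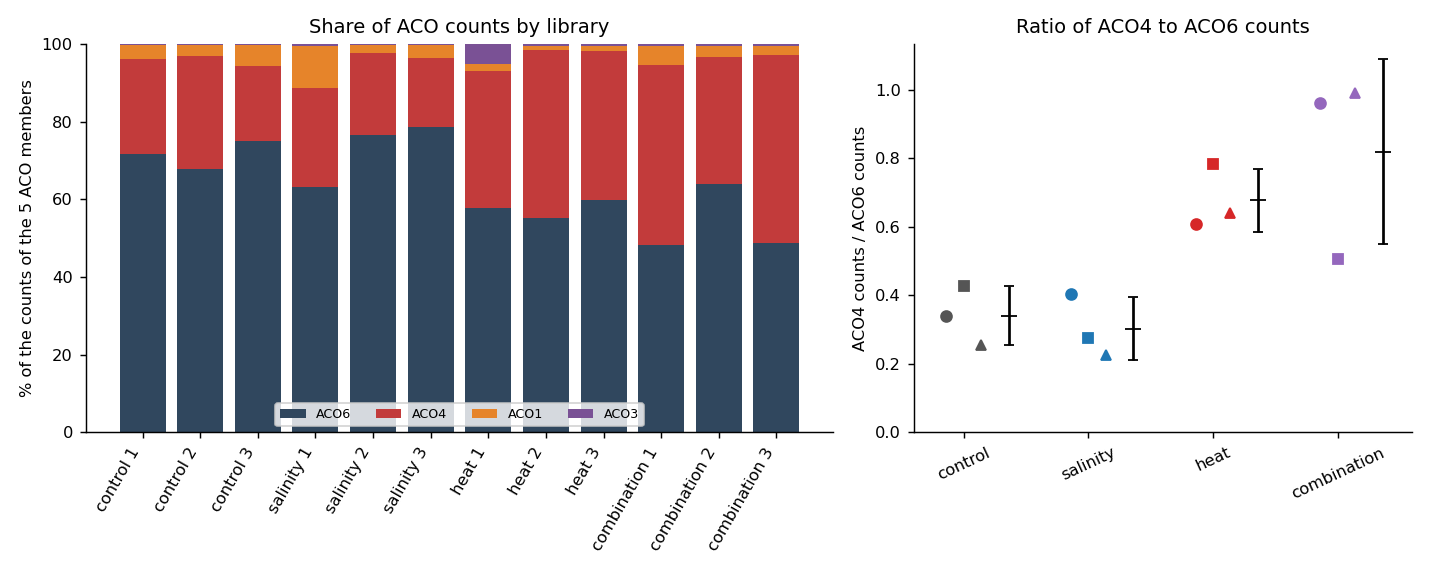
Left, share of the counts of the 5 ACO members (y axis, percent) taken by each member in the 12 libraries (x axis); ACO5 has no counts. Right, ratio of ACO4 to ACO6 counts (y axis) by treatment group, with circles, squares and triangles for replicates 1, 2 and 3 and the mean with its SD (n = 3). The ratio lies between 0.225 and 0.426 in unheated and between 0.508 and 0.990 in heated plants.

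The members did not vary as a unit. Over the 12 libraries, the log2 CPM of ACO1 and ACO6 had a Pearson correlation of 0.606, and ACO4 and ACO6 one of -0.416. The libraries share treatments, so these values describe the treatment pattern as well as the spread within groups. The gene model most like ACO6 was Solyc12g009560.2.1, with a Pearson correlation of 0.984 over the 12 libraries among 11585 tested gene models whose mean was 5 CPM or more. It was also on the list of ethylene signalling genes described below. Its mean level, over 3 libraries each, was 71.1 CPM (SD 16.7) for control, 95.2 CPM (SD 26.1) for salinity, 47.9 CPM (SD 6.31) for heat and 55.9 CPM (SD 11.3) for the combination. Like ACO6 it stood highest in salinity replicate 3 and lowest in heat replicate 2. Next came Solyc03g005450.3.1 at 0.965 and Solyc06g082780.4.1 at 0.963. For ACS2, at 0 to 12 counts, no such likeness is given.

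**Figure D4:**
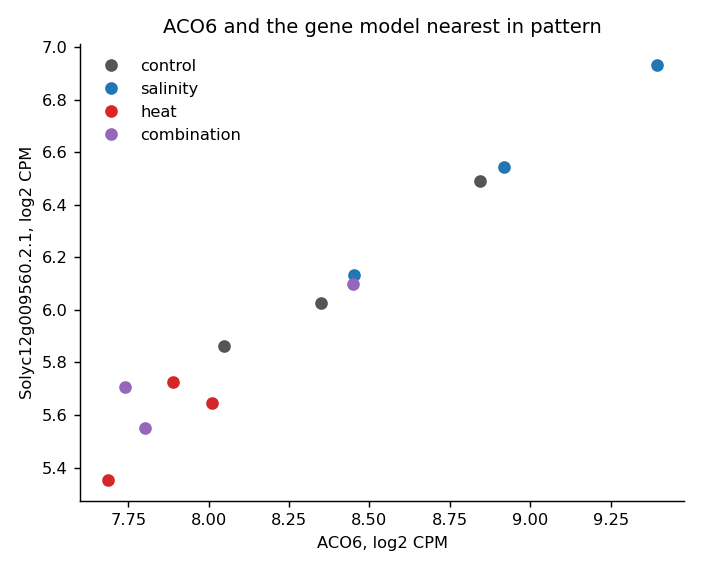
Log2 CPM of ACO6 (x axis) and of Solyc12g009560.2.1 (y axis) in the 12 libraries, coloured by treatment group. The points follow a line, with a Pearson correlation of 0.984 across groups and replicates.

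The rest of the pathway was taken from a list of 28 identifiers drawn up from general knowledge of the tomato annotation. Of these, 27 had a row and 25 were tested. The list was chosen with earlier results of these data known, so its counts are a description beside all tested gene models, not a test. Neither the count table nor the reference pairs these identifiers with names, so they are described by the class under which they were listed. Of 23 whose listed name is also a RefSeq symbol, 21 carry the chromosome of that symbol. In salinity against control, 14 were lower and 1 higher, where the shares over all tested gene models were 23.8% and 23.6%. The median log2 fold change was -0.96, compared with 0.04 over all tested gene models. None of the 14 lower calls was lost when any 1 library was left out, salinity replicate 1 included. In heat against control 6 of the 25 were higher and 4 lower, where the shares over all tested gene models were 24.6% and 15.2%. In the combination against control 2 were higher and 8 lower, where those shares were 17.5% and 15.1%.

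Of the other gene models listed as ACS, 4 had a row and 2 were tested. Solyc08g081550.4.1 stood at 7.35, 8.91 and 9.17 CPM in control replicates 1 to 3, and between 2.43 and 4.599 CPM in all 9 libraries of stressed plants, with no overlap. It fell by 1.38 in salinity (SE 0.27, adjusted p = 0.00165 by edgeR), by 1.34 in heat (SE 0.27, adjusted p = 0.00336 by edgeR) and by 1.35 in the combination (SE 0.27, adjusted p = 0.00281 by edgeR) on the log2 scale. These 3 comparisons share the control libraries. Solyc02g091990.3.1 had 17, 10 and 11 counts in control replicates 1 to 3, 60, 24 and 215 in salinity, none in heat, and 0, 4 and 0 in the combination. It was higher in salinity, with a log2 fold change of 2.90 (SE 0.81, adjusted p = 0.0137 by edgeR), a call lost without salinity replicate 3 (adjusted p = 0.0858) or control replicate 2 (adjusted p = 0.0562). Its control mean was 6.28-fold higher than in heat when heat is set to 3 counts per library. The adjusted p of heat against control was 0.00759 by edgeR. The other 2 had at most 4 counts in any library.

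**Figure D5:**
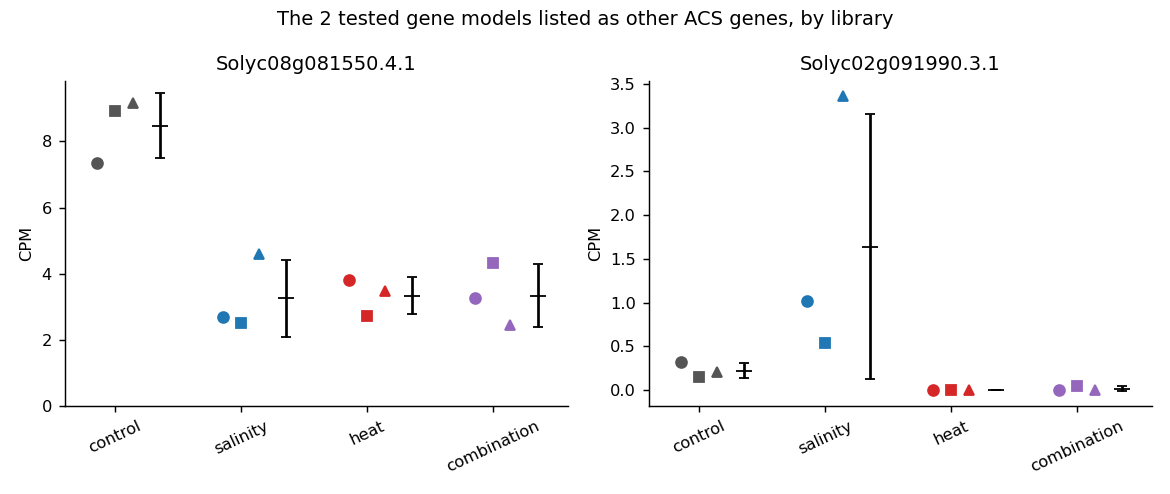
Level in CPM (y axis, linear) of the 2 tested gene models listed as other ACS genes, in the 4 treatment groups (x axis), with circles, squares and triangles for replicates 1, 2 and 3 and the mean with its SD (n = 3). Solyc08g081550.4.1 is at 7.35 CPM or more in control and at 4.599 CPM or less elsewhere, and Solyc02g091990.3.1 is seen in unheated plants, with 4 counts in heated ones.

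SAM synthetases make the substrate of ACS. All 4 gene models listed as such were called lower in salinity than in control, where 23.8% of all tested gene models were. Their median log2 fold change was -1.71, compared with 0.04 over all tested gene models. Solyc01g101060.4.1 went from 202 ± 25.5 CPM in control to 78.1 ± 7.80 CPM in salinity, 403 ± 99.4 CPM in heat and 260.2 ± 25.8 CPM with both stresses (mean ± SD, n = 3 for each group), and it was the only one of the 4 called higher in heat against control. In the combination against salinity 3 of the 4 were higher, where 24.4% of all tested gene models were. The other 2 gene models listed as ACO had means under 2 CPM in every group, and the salinity comparison called neither. One of them was called lower in heat against control, a call lost without heat replicate 1 (adjusted p = 0.0631 by edgeR). Both were called lower in the combination against salinity, where the calls were lost in 4 and 3 of 12 refits without a library. Over all tested gene models, 15.2% were called lower in heat against control and 20.1% in the combination against salinity.

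Among 7 gene models listed as ethylene receptors, 2 were lower and none higher in salinity against control, 2 were higher and 1 lower in heat against control, and 2 were lower in the combination against control. Both higher calls in heat, of Solyc12g011330.4.1 and Solyc07g056580.3.1, were lost without control replicate 3, at adjusted p of 0.0722 and 0.13 by edgeR, and without heat replicate 2, at 0.0923 and 0.209. The latter was lost in 8 of 12 refits without a library. Of the 2 lower calls in the combination, that of Solyc06g053710.3.1 was lost without combination replicate 3 (adjusted p = 0.0562 by edgeR). Of 10 listed downstream signalling genes, 7 were lower and none higher in salinity against control. In heat against control 3 of the 10 were higher and none lower, and in the combination against heat 6 were lower and none higher. The counts of receptors and signalling genes are to be read against the shares of all tested gene models. Those called lower were 23.8% in salinity against control, 15.2% in heat against control, 15.1% in the combination against control and 23.4% in the combination against heat, and those called higher in heat against control were 24.6%.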

How the data were processed

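The authors deposited raw counts, in whole numbers, in a single table of gene models by libraries, and all 12 columns were used. Trimmomatic 0.33 and Bowtie2 2.3.4 are named in the submitters' processing notes. The counting program, its strand setting and its handling of multiply mapped reads are not given in the sources used here, so counts of similar or overlapping gene models, among them ACS and ACO genes, are uncertain. Between 66.0% and 69.8% of counts from 1 to 20 were even in each library, so both mates of a pair may have been counted.

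Counts were analysed with edgeR 4.0.16 in R 4.3.3. filterByExpr kept 20717 gene models. Libraries were scaled with TMM factors, and 1 quasi-likelihood model with group as the only factor was fitted to all 12 libraries. P-values were adjusted by Benjamini-Hochberg over all tested gene models in each of 6 contrasts, with a threshold of 0.05. The SE is approximate: the size of each log2 fold change was divided by the root of its F statistic. Log2 CPM used a prior count of 2. The scripts were tested on simulated data. No exact permutation test was made, because for 1 gene in 3 against 3 libraries its p cannot fall under 0.1. Limits for a count of 0 cover counting error only. They take counts as independent, and would be too low if both mates of a pair were counted. All members described are named. A further gene of the chosen set is not reported here, and counts, shares and sums of members leave it out. The rule for the members uses identifiers only, but the members, lists and tests were chosen with earlier results of these data known.

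Alternatives were DESeq2 size factors, library totals, 2 other filters, the DESeq2 1.42.0 Wald test, a replicate block, halved counts, a fit of only the groups compared, and each library left out in turn. Refits without a library kept the gene models tested. Replicates within a group differed by far more than sampling noise.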

Additional observations from a re-analysis of the deposited data

Results flagged for a closer look

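No member had an interaction call. In the pathway list, heat acted differently in salt-treated and other plants, by edgeR's interaction test, for 5 of 25 tested gene models. All 5 had a positive interaction. A positive value means that the combination stood above the sum of the single changes on the log2 scale, not that the level rose. Solyc08g081550.4.1 and Solyc11g006180.2.1 had lower means than control in every stress group. Over all tested gene models the share called was 8.94%, and the share called with a positive interaction 4.73%. Of the 5 calls, 2 were lost in refits without a library. The interaction was 1.37 for Solyc08g081550.4.1, listed as ACS (adjusted p = 0.0442 by edgeR), and this call was lost in 10 of 12 refits without a library, at an adjusted p of up to 0.0976. It was 1.41 for Solyc12g099000.3.1 (adjusted p = 0.00929 by edgeR) and 3.77 for Solyc09g008280.2.1 (adjusted p = 0.00486 by edgeR), both listed as SAM synthetases. It was 1.49 for Solyc11g006180.2.1, listed as a receptor (adjusted p = 0.0256 by edgeR), which lost its call in 4 of 12 refits, at an adjusted p of up to 0.0639, and 1.19 for Solyc06g073730.2.1, listed as a signalling gene (adjusted p = 0.0106 by edgeR). The cause of these differences was not tested.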

How the results depend on the processing

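The number of members called was 0 in salinity against control, and 1 with DESeq2 size factors and with the DESeq2 Wald test. In the combination against control it was 1, and 2 with only the groups compared, where ACO3 was called. In the combination against salinity it was 2, and 1 with library totals and with only the groups compared. In the combination against heat it was 1, but 2 with DESeq2 size factors, with the DESeq2 Wald test, with the replicate number as a block and without the filter on low counts, where ACS2 and ACO1 were called and ACO4 was not, and 0 with library totals. When each library was left out in turn, the number of members called ranged from 0 to 1 in salinity against control, from 1 to 3 in heat against control, from 1 to 3 in the combination against salinity and from 0 to 2 in the combination against heat. In the alternatives run, no other count of members differed from its main value by more than 1.5 times. Replicate numbers were not treated as pairs: the correlation of same-numbered deviations ranged from -0.480 to 0.350, and every pair exceeded 0.1 in 0 of 5 comparisons. Beside the calls of ACO3 and ACO1 given above, the block changed no call of a member.

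Over all tested gene models, leaving out a library gave between 4804 and 8804 calls in heat against control, between 4900 and 8931 in the combination against heat and between 806 and 2066 for the interaction, for which library totals gave 1103 and the DESeq2 Wald test 3409, compared with 1852. With library totals, the median over all gene models went from 0.14 to 0.44 on the log2 scale in heat against control, from 0.03 to 0.32 in the combination against control and from 0.08 to 0.50 in the combination against salinity. Under that scaling, 7005 gene models were higher and 1683 lower in heat against control, compared with 5105 and 3154.

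Signs turned where values lay near 0 or rested on 1 library. Without a library the log2 value ranged from -0.68 to 0.20 for ACO1 in the combination against control (the latter without control replicate 3), from -2.18 to 0.63 for ACO3 in the combination against heat (the latter without heat replicate 1), from -0.032 (without combination replicate 2) to 0.29 for ACO6 in the combination against heat, and from -0.022 to 0.22 for the interaction of ACO4. The cause was not tested. ACS4 and ACO5 had no counts and ACS2 had few, and for these genes low depth and absent expression were not told apart.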
